A study of Mus musculus with 12 samples.

Results

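The CC chemokines of mouse chromosome 11 are 10 genes, Ccl2, Ccl7, Ccl11, Ccl12 and Ccl8 in the MCP subcluster and Ccl5, Ccl9, Ccl6, Ccl3 and Ccl4 in the MIP subcluster. They were taken by symbol from a deposited table of 38739 gene symbols, and all 10 were listed. The RNA was from bone marrow-derived macrophages (BMDMs), which are bone marrow cells grown into macrophages in culture, of wild-type (WT) mice and of mice lacking cGAS (cGAS-/-), the cytosolic DNA sensor that makes 2′3′-cGAMP. Cells were left untreated (UT) or given lipopolysaccharide (LPS), a component of the bacterial outer membrane, which made 4 groups of 3 samples, WT UT, cGAS-/- UT, WT LPS and cGAS-/- LPS. The cGAS-/- allele is a germline deletion carried by every cell and not one limited to macrophages. The sample labels gave LPS at 100 ng/mL for 1 h and named neutrophils in the extraction step, whereas the methods gave 150 ng/mL for 24 h and macrophages, and the files did not settle which applied. The study described the triplicates as technical, and p-values therefore measure the spread between these samples and not between mice.

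CC chemokines are small secreted proteins that bind G protein-coupled receptors on leukocytes and direct their migration. The monocyte chemoattractant proteins (MCP) act mainly through Ccr2 on monocytes (Ccl2, Ccl7 and Ccl12), and Ccl11 acts through Ccr3 on eosinophils. The macrophage inflammatory proteins Ccl3 and Ccl4, with Ccl5, act on monocytes and T cells, and Ccl6 and Ccl9 are rodent chemokines that bind Ccr1 and are made by myeloid cells without stimulation. In macrophages, LPS is sensed by Tlr4, which activates NF-kB and, through IRF transcription factors and interferon, STAT transcription factors, and several of these chemokine genes are known targets of those pathways.

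In the GENCODE annotation of GRCm39, the 5 MCP genes lay on the plus strand of chromosome 11 from position 81926397, the start of Ccl2, to position 82007625, the end of Ccl8, a stretch of 81.2 kb. The 5 MIP genes covered 139 kb from position 83416602, the lower end of Ccl5, to position 83555509, the end of Ccl4, and 1409 kb separated the subclusters. Ccl5, Ccl9, Ccl6 and Ccl3 were on the minus strand and Ccl4 on the plus strand. Between transcripts, the closest members were Ccl6 and Ccl9, with 83.6% identity over 177 aligned bases. They were followed by Ccl11 and Ccl12 with 77.3% over 132 bases and Ccl2 and Ccl7 with 77.2% over 149 bases. Ccl9 shared stretches of at least 60 bases at 95% identity or more with 20 other genes, the longest of 163 bases, so reads could have been split there, whereas the other 9 members shared no such stretch with any gene.

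RefSeq promoters, on the older build GRCm38.p6, were at hand for 5 members. Those of Ccl8 and Ccl12 are shown because these neighbouring genes were the MCP members called lower in cGAS-/- LPS cells, that of Ccl6 because it was called lower in cGAS-/- cells with and without LPS, and that of Ccl3 because its samples lay higher there. Each line gives the 250 bases before the start of the gene, 5′ to 3′ on its own strand, at chr11:82114935-82115184 for Ccl8, chr11:82101595-82101844 for Ccl12, chr11:83593088-83593337 for Ccl6 and chr11:83649379-83649628 for Ccl3. Capitals mark a match to a searched motif, TATAAA in Ccl8 and Ccl12 and the interferon response core GAAANNGAA, on the opposite strand, in Ccl3.
Ccl8: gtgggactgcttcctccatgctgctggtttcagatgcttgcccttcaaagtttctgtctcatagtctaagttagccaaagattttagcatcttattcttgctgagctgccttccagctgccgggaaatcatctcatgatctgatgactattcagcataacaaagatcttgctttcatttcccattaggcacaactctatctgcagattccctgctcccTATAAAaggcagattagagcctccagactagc
Ccl12: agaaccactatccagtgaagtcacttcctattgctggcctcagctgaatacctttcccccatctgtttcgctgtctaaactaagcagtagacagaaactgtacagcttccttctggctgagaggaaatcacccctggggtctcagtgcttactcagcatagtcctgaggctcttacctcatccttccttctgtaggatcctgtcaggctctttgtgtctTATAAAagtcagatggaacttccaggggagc
Ccl6: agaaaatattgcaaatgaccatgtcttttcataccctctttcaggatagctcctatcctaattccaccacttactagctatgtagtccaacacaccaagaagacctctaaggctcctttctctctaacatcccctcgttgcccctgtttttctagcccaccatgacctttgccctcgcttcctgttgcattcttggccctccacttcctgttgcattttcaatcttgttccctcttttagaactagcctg
Ccl3: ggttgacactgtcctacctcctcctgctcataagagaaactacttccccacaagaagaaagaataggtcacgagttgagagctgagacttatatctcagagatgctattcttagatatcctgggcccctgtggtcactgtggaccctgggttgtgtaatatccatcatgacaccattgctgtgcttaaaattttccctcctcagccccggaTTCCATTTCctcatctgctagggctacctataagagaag

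TATAAA began 32 bases before the start of Ccl8 and 31 bases before that of Ccl12, and was found in 8.12% of 27025 RefSeq promoters of the same length. GAAANNGAA, searched on both strands, was found in Ccl3 among the members and in 7.16% of all promoters. The AP-1 letters TGANTCA (6.87% of promoters) and the NF-kB consensus (3.75%) were matched in Ccl9, which also held TATAAA, and the STAT letters TTCNNNGAA (7.18%) in none of the 5. No base was shared between matches. The promoters of Ccl8 and Ccl12 both held GGAAATCA 128 bases before the start, and those of Ccl6 and Ccl9 shared the 13 bases GCCCTCCACTTCC at different distances. A match describes letters and not binding, and no match says only that these letters were not in the window.

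The deposited values were taken as TPM (transcript abundance scaled for transcript length and library size), averaged over the transcripts of a symbol, a unit inferred from the values, and the read depth behind them is unknown. Because of this averaging, levels were compared between samples and not between members. The column total ranged from 447189 to 503156 for 11 samples, while that of WT LPS replicate 3 was 709802. Protein-coding genes held 39.7% to 54.4% of the total in those 11 samples and 18.5% in WT LPS replicate 3, which thus stands apart. Log2 fold changes of members that include this sample are followed by those of a fit on the other 11 samples, which leaves 2 WT LPS samples. Sample weights from limma, lower for noisier samples, were 0.346, 0.159 and 0.0352 in WT LPS replicates 1, 2 and 3. In the other groups they were at least 1.38. Cgas itself lay between 2.67 and 2.89 TPM in WT UT samples and between 1.19 and 3.25 TPM in WT LPS samples, above the highest cGAS-/- value of 0.291 TPM. Of the 10 members, 9 passed a filter of 1 TPM in 3 samples and were tested with limma among 11887 genes, and the text calls a change where the Benjamini-Hochberg adjusted p over those genes was under 0.05. Ccl11 did not pass, since it was above 0 in a lone sample, WT UT replicate 2, at 0.0938 TPM.

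LPS raised 7 of the 9 tested members in WT cells, where 4.31% of all tested genes were called higher, and lowered none, where 23.3% were called lower. In cGAS-/- cells it raised 5 (4.76% of all genes) and lowered 1 (9.06% of all genes). At an unadjusted p under 0.05 limma gave 7 members higher and 1 lower with LPS in each genotype, against 6.23% and 36.1% of all genes in WT and 7.34% and 17.6% in cGAS-/- cells. Between genotypes, 2 members were called lower in cGAS-/- UT cells (1.58% of all genes) and none higher (0.252%), and 3 were called lower in cGAS-/- LPS cells (1.00% of all genes) and none higher (1.36%). At an unadjusted p under 0.05 these counts were 4 lower and 0 higher in UT cells (6.04% and 2.04% of all genes) and 5 lower and 1 higher with LPS (5.33% and 13.4%). The LPS effect itself was called different between genotypes in 0 of 9 members (0.900% of all genes), with 4 members at an unadjusted p under 0.05 (11.1% of all genes). With a log2 fold change beyond 2 required as well, as in the methods, 6 and 5 members were called for LPS in WT and cGAS-/- cells (4.32% and 3.50% of all genes), and the same counts of 2 and 3 held between genotypes (0.370% and 0.614%). When WT LPS replicate 3 was left out, 8 members were called for LPS in each genotype, 7 higher and 1 lower, where calls among all genes rose to 35.2% in WT and 31.2% in cGAS-/- cells. Between genotypes, 4 members were then called lower and 1 higher in UT cells (5.50% of all genes called) and 5 lower and 1 higher with LPS (8.27%). The LPS effect was then called different in 5 members, Ccl4, Ccl6, Ccl8, Ccl9 and Ccl12 (4.56%).

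**Figure D1:**
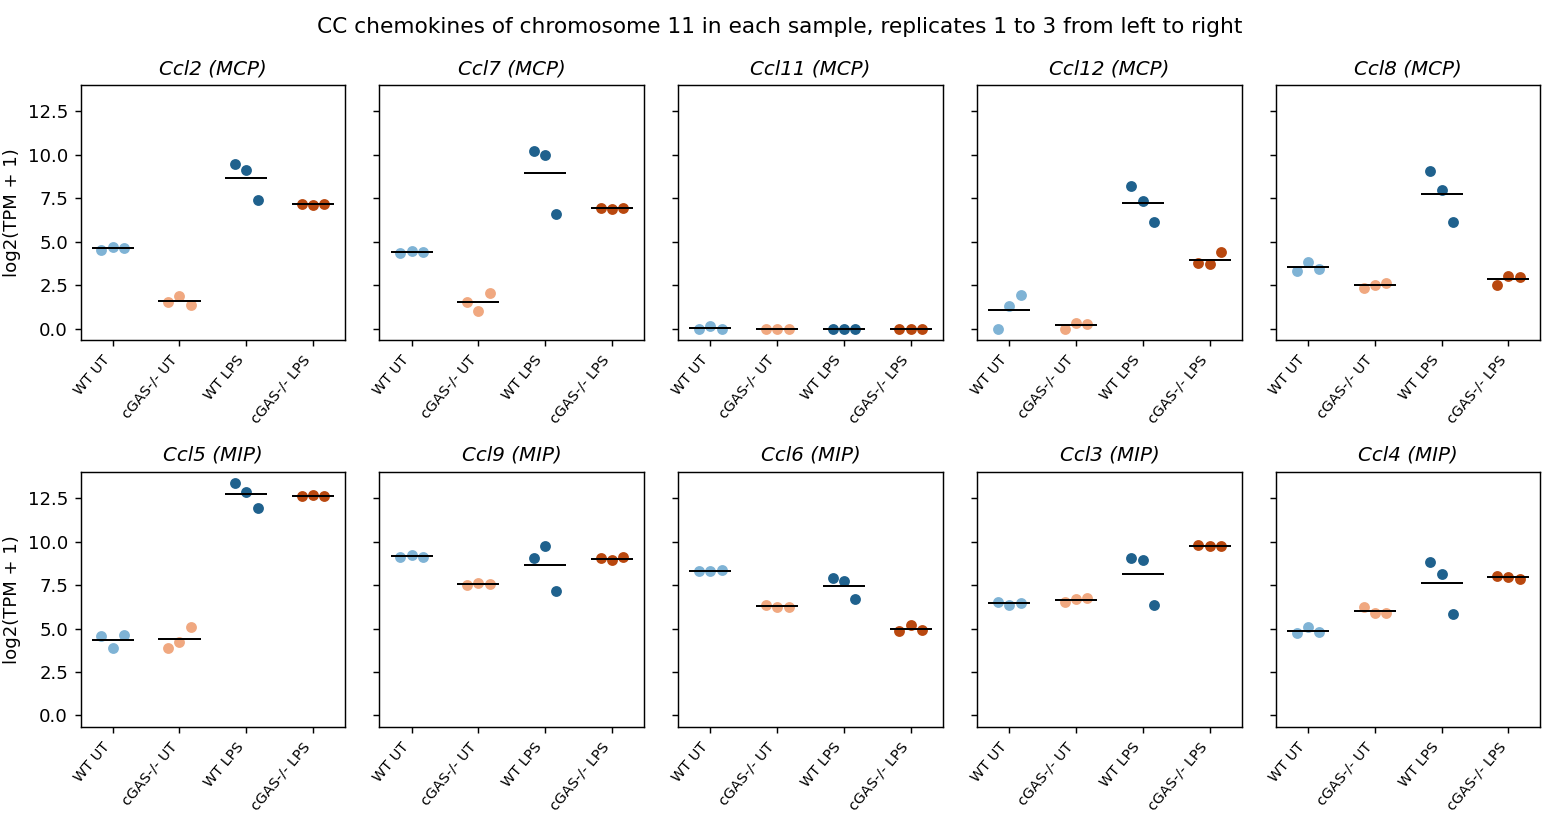
Level of each member in each of the 12 samples as log2(TPM + 1), with points for replicates 1 to 3 from left to right and a line at the mean of the group. In the upper row, Ccl2, Ccl7, Ccl12 and Ccl8 were lower in cGAS-/- than in WT cells on average with and without LPS, whereas in the lower row Ccl5 rose to a like level with LPS in both genotypes and WT LPS replicate 3 lay below the other WT LPS samples.

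Ccl2, the founding monocyte chemoattractant, was measured at 21.9, 25.4 and 23.9 TPM in WT UT cells and at 1.95, 2.70 and 1.61 TPM in cGAS-/- UT cells. With LPS it reached 722, 555 and 171 TPM in WT replicates 1, 2 and 3 and 146, 140 and 142 TPM in cGAS-/- cells. All cGAS-/- samples lay below all WT samples under the same treatment, but WT LPS replicate 3 came close to the cGAS-/- LPS samples. The mean in UT cells was 11.4-fold lower in cGAS-/-, with a log2 fold change of -3.02 (SE 0.44, adjusted p = 0.00414). In WT cells LPS raised Ccl2 by 4.06 (log2 scale) (SE 0.44, adjusted p = 9.23e-05), or by 4.68 without WT LPS replicate 3, and by 5.56 in cGAS-/- cells (adjusted p = 1.06e-05). With LPS, the mean was 3.38-fold lower in cGAS-/- cells and the change of -1.51 was not called (adjusted p = 0.116), whereas a fit that left out WT LPS replicate 3 gave -2.14 and a call (adjusted p = 4.85e-05).

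Ccl7, or MCP-3, lies next to Ccl2 and had a like pattern of levels. It was measured at 19.8, 21.2 and 20.4 TPM in WT UT cells and at 1.86, 1.06 and 3.07 TPM in cGAS-/- UT cells. With LPS it stood at 1219, 1002 and 95.4 TPM in WT cells and at 122, 118 and 121 TPM in cGAS-/- cells. The UT groups did not overlap, whereas WT LPS replicate 3 fell below every cGAS-/- LPS sample. LPS raised Ccl7 in WT cells by 4.51 (SE 0.75, adjusted p = 0.00152), which became 5.69 without WT LPS replicate 3, and in cGAS-/- cells by 5.39 (adjusted p = 6.05e-04). In UT cells the mean was 10.2-fold lower in cGAS-/-, with a log2 fold change of -2.90 that was not called (adjusted p = 0.103) in the fit where all 4 groups shared an estimate of the spread, and leaving out WT LPS replicate 3 made it a call (adjusted p = 4.73e-05). With LPS the change was -2.02 (adjusted p = 0.199), and -3.19 without that sample (adjusted p = 3.63e-05).

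Ccl8, or MCP-2, a monocyte attractant that in mice acts on Ccr8, had the widest gap between genotypes with LPS among the members. It was measured at 8.96, 13.0 and 9.85 TPM in WT UT cells and at 4.07, 4.66 and 5.14 TPM in cGAS-/- UT cells. With LPS it reached 528, 251 and 70.5 TPM in WT cells, but stood at 4.66, 7.16 and 6.82 TPM in cGAS-/- cells. The cGAS-/- LPS samples thus overlapped the cGAS-/- UT samples and lay below every WT sample, untreated ones included. LPS raised Ccl8 by 4.21 in WT cells (SE 0.56, adjusted p = 3.51e-04), and by 4.99 without WT LPS replicate 3. In cGAS-/- cells the change was 0.35, with a 95% interval from -0.88 to 1.57 (adjusted p = 0.782). With LPS, the mean was 45.6-fold lower in cGAS-/- than in WT cells, with a log2 fold change of -4.90 (SE 0.56, adjusted p = 0.00118), and 62.7-fold lower without WT LPS replicate 3 (-5.68). The call was lost when the LPS samples were fitted alone (adjusted p = 0.136). In UT cells the mean was 2.29-fold lower and the change of -1.03 was not called (adjusted p = 0.829). The difference of the LPS effect between genotypes was -3.86 (SE 0.79, adjusted p = 0.0508), just short of a call, and leaving out WT LPS replicate 1, 2 or 3 gave -3.20, -3.74 and -4.65 with adjusted p of 0.0402, 0.0281 and 2.35e-04.

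Ccl12, or MCP-5, a mouse ligand of Ccr2, was close to 0 without LPS, at 0, 1.47 and 2.82 TPM in WT cells and at 0, 0.269 and 0.182 TPM in cGAS-/- cells. With LPS it rose to 297, 163 and 69.1 TPM in WT cells and to 12.7, 12.4 and 20.0 TPM in cGAS-/- cells. Every LPS sample was above every UT sample, and every WT LPS sample above every cGAS-/- LPS sample. The rise was 6.16 on the log2 scale in WT cells (SE 0.55, adjusted p = 2.42e-05), or 6.71 without WT LPS replicate 3, and 3.78 in cGAS-/- cells (adjusted p = 7.80e-04). The latter depended on the pseudocount, at 6.08 with 0.1 and 1.94 with 5, both called. The rise in WT cells ran from 4.62 to 7.6 over 25 alternative settings and was called in all. With LPS the mean was 11.7-fold lower in cGAS-/- cells, with a log2 fold change of -3.26 (SE 0.55, adjusted p = 0.0113), or -3.81 without WT LPS replicate 3. Without cGAS-/- LPS replicate 1 or 2 the call was lost, with adjusted p of 0.067 and 0.0641, and it was also lost when the LPS samples were fitted alone (adjusted p = 0.181) or with a pseudocount of 0.1 (-3.34, adjusted p = 0.162). The LPS effect in cGAS-/- cells differed from that in WT cells by -2.38, which was not called (adjusted p = 0.259), and which reached -2.93 without WT LPS replicate 3 (adjusted p = 0.0362). With a pseudocount of 5 this difference was -2.68 (adjusted p = 0.0428). It ran from -2.93 to -1.52 over 24 alternatives and was called in 2.

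Ccl5 (RANTES), a T cell and monocyte attractant, had the largest LPS effect in WT cells of all 11887 genes tested on the log2(TPM + 1) scale, and ranked 2 when WT LPS replicate 3 was left out. Without LPS it was measured at 22.5, 13.6 and 24.1 TPM in WT cells and at 13.5, 18.0 and 33.5 TPM in cGAS-/- cells. With LPS it reached 10512, 7327 and 3957 TPM in WT cells and 6426, 6546 and 6265 TPM in cGAS-/- cells. The genotypes overlapped under each treatment, while the LPS and UT samples were far apart. The LPS effect was 8.36 in WT cells (SE 0.40, adjusted p = 8.02e-07), or 8.74 without that sample, and 8.24 in cGAS-/- cells (adjusted p = 4.69e-07) on the log2 scale. Between genotypes it differed by -0.12, with a 95% interval from -1.37 to 1.13 (adjusted p = 0.933). With LPS the change in cGAS-/- cells was -0.07, with an interval from -0.96 to 0.82. With that sample left out these became -0.50 and -0.45, neither called (adjusted p = 0.651 and 0.483).

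Ccl3 (MIP-1 alpha) and Ccl4 (MIP-1 beta), a neighbouring pair, did not share the lower level of the MCP genes in cGAS-/- cells. Ccl3 was measured at 90.0, 81.4 and 88.0 TPM in WT UT cells and at 91.6, 101 and 109 TPM in cGAS-/- UT cells, and with LPS at 540, 491 and 79.4 TPM in WT and at 902, 848 and 850 TPM in cGAS-/- cells. All cGAS-/- samples were above all WT samples under the same treatment, and WT LPS replicate 3 was below every WT UT sample. LPS raised Ccl3 in cGAS-/- cells by 3.10 on the log2 scale (SE 0.57, adjusted p = 0.00363). In WT cells the rise of 1.67 was at the threshold (adjusted p = 0.0498), with overlapping samples, and kept its call under 8 of 25 alternative settings, among them the fit without WT LPS replicate 3 (2.56, adjusted p = 1.59e-07). With LPS, the mean was 2.34-fold higher in cGAS-/- cells, a log2 fold change of 1.64 that was not called (adjusted p = 0.174). Without WT LPS replicate 3 the mean was 1.68-fold higher and the change of 0.75 was called (adjusted p = 0.00168), and leaving out WT LPS replicate 2 gave 2.06, also called (adjusted p = 0.0328).

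Ccl4 stood at 25.8, 32.7 and 26.9 TPM in WT UT cells and at 76.0, 58.1 and 57.8 TPM in cGAS-/- UT cells. With LPS it was measured at 460, 279 and 56.3 TPM in WT and at 258, 248 and 230 TPM in cGAS-/- cells. The UT groups were apart, with cGAS-/- higher, and the LPS groups overlapped. The UT mean was 2.25-fold higher in cGAS-/- cells, which was not called (1.14 on the log2 scale, adjusted p = 0.776), and was called without WT LPS replicate 3 (adjusted p = 0.00602). LPS raised Ccl4 by 2.73 in WT cells (SE 0.59, adjusted p = 0.0066), and by 3.62 without WT LPS replicate 3, and the call was lost when the WT samples were fitted alone (adjusted p = 0.0844). In cGAS-/- cells the change of 1.93 was just short of a call (adjusted p = 0.0509), and was called without WT LPS replicate 1, 2 or 3 (adjusted p = 0.0185, 0.0477 and 3.29e-05). With LPS the genotype change was 0.34, with an interval from -0.95 to 1.63, and turned to -0.55 without WT LPS replicate 3 (adjusted p = 0.151). The LPS effect differed by -0.80 (adjusted p = 0.714), and by -1.68 with a call when that sample was left out (adjusted p = 0.00918).

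Ccl6 and Ccl9 were the tested members not called higher with LPS in WT cells. Ccl6 was measured at 314, 313 and 328 TPM in WT UT cells and at 81.9, 73.8 and 74.9 TPM in cGAS-/- UT cells, and with LPS at 244, 215 and 104 TPM in WT and at 27.8, 35.4 and 29.6 TPM in cGAS-/- cells. No sample overlapped between genotypes under either treatment, and even the lowest WT LPS sample was above all cGAS-/- samples. The mean was 4.14-fold lower in cGAS-/- UT cells (-2.04 on the log2 scale, SE 0.30, adjusted p = 0.00474) and 6.06-fold lower in cGAS-/- LPS cells (-2.48, SE 0.30, adjusted p = 0.00168). Without WT LPS replicate 3 the latter was 7.42-fold lower (-2.86), and with the LPS samples fitted alone it was not called (adjusted p = 0.172). LPS lowered Ccl6 in cGAS-/- cells by a log2 fold change of -1.29 (adjusted p = 0.0153), a call that was lost without any of cGAS-/- UT replicates 1, 2 and 3 or cGAS-/- LPS replicates 1 and 3 (adjusted p from 0.0513 to 0.0714). In WT cells the change was -0.85 (adjusted p = 0.0576), and it was called without WT LPS replicate 1, 2 or 3, with values from -1.09 to -0.47 (adjusted p = 0.0222, 0.0243 and 0.012, in this order). Over all 25 alternatives this change ran from -1.14 to -0.15 and was called in 6. The LPS effect differed between genotypes by -0.44 (adjusted p = 0.700), and by -0.82 with a call when that sample was left out (adjusted p = 0.0193).

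Ccl9 was measured at 563, 610 and 560 TPM in WT UT cells and at 180, 198 and 191 TPM in cGAS-/- UT cells. With LPS it stood at 543, 867 and 143 TPM in WT and at 527, 488 and 550 TPM in cGAS-/- cells. The UT groups were apart, whereas the LPS groups overlapped, with WT LPS samples on either side of the cGAS-/- ones. The UT mean was 3.05-fold lower in cGAS-/- cells, a log2 fold change of -1.60 that was not called (adjusted p = 0.219) and was called without WT LPS replicate 3 (adjusted p = 1.89e-04). LPS changed Ccl9 by 1.46 in cGAS-/- cells (adjusted p = 0.0816) and by -0.50 in WT cells (adjusted p = 0.458), neither of them called. The first was called without WT LPS replicate 2 or 3 (adjusted p = 0.0259 and 4.75e-05), and the latter turned to 0.25 without WT LPS replicate 3 (adjusted p = 0.265). The difference of the LPS effect was 1.96 (adjusted p = 0.317), and was called without WT LPS replicate 2 (2.50, adjusted p = 0.0278) or 3 (1.21, adjusted p = 0.0149).

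**Figure D2:**
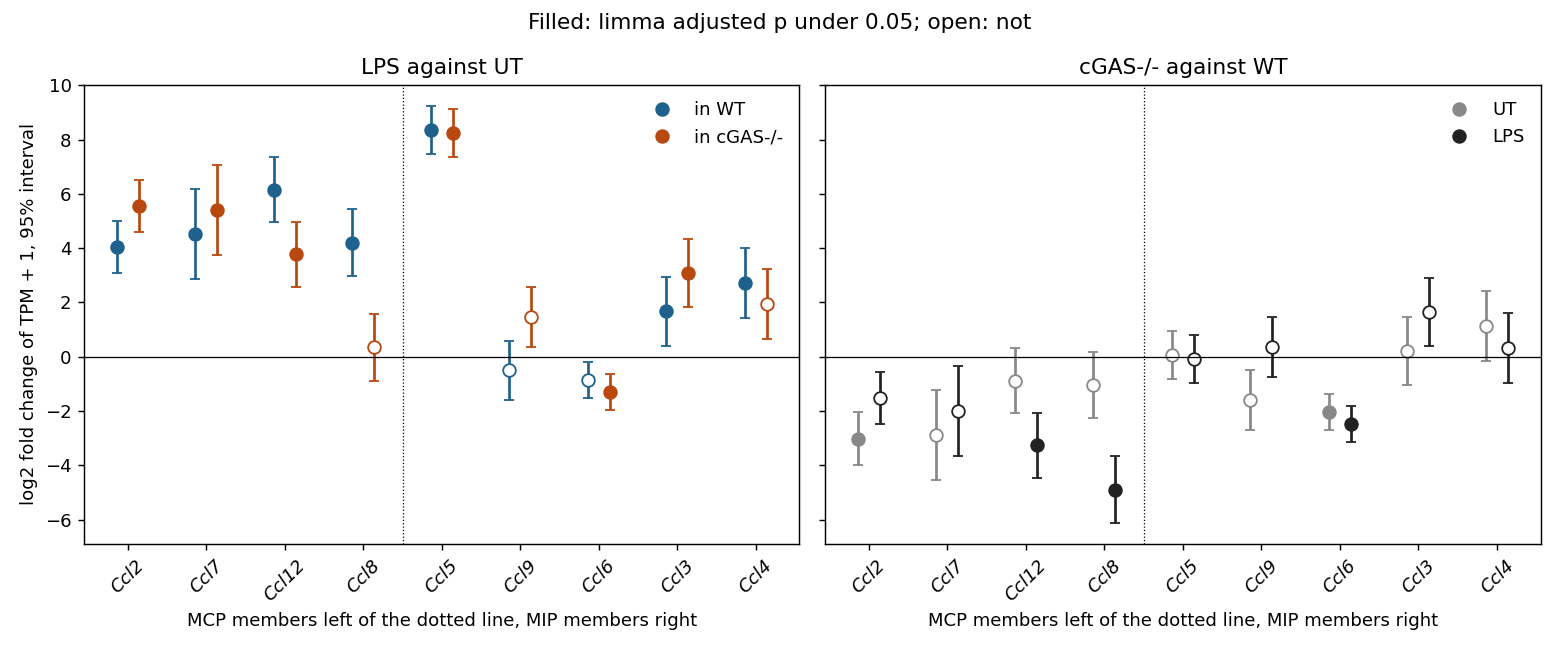
Log2 fold change of TPM + 1 for each tested member, LPS against UT on the left panel and cGAS-/- against WT on the right panel, with 95% intervals from limma and filled points where the adjusted p was under 0.05. With LPS, Ccl8 at -4.90, Ccl12 at -3.26 and Ccl6 at -2.48 were called lower in cGAS-/- cells, while Ccl5 stood beside 0 between genotypes and above 8 for LPS.

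The MCP and MIP subclusters are set side by side as descriptions with no test. In cGAS-/- against WT cells, the median log2 fold change of the 4 tested MCP genes was -1.96 without LPS and -2.64 with LPS, all 4 below 0 in each, of which 1 and 2 were called. The 5 MIP genes had medians of 0.05 and 0.34, with 3 of 5 above 0 in each and 1 called, Ccl6, against medians of -0.04 and 0.20 over all genes. The MIP median turned to -0.02 in UT cells when samples were rescaled to a common total and to -0.04 with LPS under TMM factors, whereas the MCP median kept its sign under every setting run. Without WT LPS replicate 3, the medians with LPS became -3.50 for MCP and -0.45 for MIP genes. For LPS against UT, the MCP medians were 4.36 in WT and 4.59 in cGAS-/- cells, and the MIP medians were 1.67 and 1.93. In WT cells they became 5.34 and 2.56 without WT LPS replicate 3. The order of the MCP medians between genotypes turned with that sample left out, with TMM factors (5.04 in WT and 4.75 in cGAS-/- cells), with sample weights (5.25 and 4.62) and with a pseudocount of 5 (4.07 and 3.06), while a pseudocount of 0.1 gave 4.44 and 6.01. That of the MIP medians turned as well with the sample left out, with TMM factors (2.36 and 2.22) and with sample weights (2.42 and 1.92). The medians over all genes were -0.46 and -0.20, and TMM factors moved them to -0.09 and -0.02.

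Samples of the compared groups did not overlap in 5 members that were lower in cGAS-/- UT cells (18.4% of all genes) and 2 that were higher (12.1%), Ccl3 and Ccl4. With LPS, 4 members were lower without overlap (5.17% of all genes), Ccl2, Ccl6, Ccl8 and Ccl12, and 1, Ccl3, was higher (12.6%). For LPS against UT, 6 members were higher without overlap in WT cells (5.31%) and 7 in cGAS-/- cells (15.5%), and 1 was lower in each (32.9% and 40.2%), Ccl6.

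Ratios within a sample do not depend on its scaling, apart from the 1 added to each value before logarithms, and are given as descriptions with no test. The mean log2(TPM + 1) of the 4 MCP genes minus that of the 5 MIP genes was -3.60, -2.99 and -3.08 in WT UT samples and -4.75, -4.69 and -4.75 in cGAS-/- UT samples. With LPS it was -0.41, -0.88 and -1.02 in WT and -3.77, -3.70 and -3.48 in cGAS-/- samples. WT LPS replicate 3 thus lay beside the other WT LPS samples on this measure, at -1.02. The ratio of Ccl2 to Ccl3 was 1.34, 1.13 and 2.16 in WT LPS samples and 0.162, 0.165 and 0.167 in cGAS-/- LPS samples, with no overlap. The genotypes were already apart without LPS, at 0.243, 0.313 and 0.272 in WT UT and 0.0213, 0.0266 and 0.0148 in cGAS-/- UT samples.

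Within the MCP subcluster, Ccl7 to Ccl2 was 0.836, 0.843 and 0.849 in cGAS-/- LPS samples and 0.905, 0.833 and 0.854 in WT UT samples, whereas it spread from 0.391 to 1.91 in cGAS-/- UT samples, where both genes were low, and was 1.69, 1.81 and 0.556 in WT LPS samples. The ratio of Ccl8 to Ccl2 was 0.410, 0.512 and 0.412 in WT UT samples, 2.09, 1.73 and 3.20 in cGAS-/- UT samples and 0.732, 0.453 and 0.411 in WT LPS samples. In cGAS-/- LPS samples it was 0.0319, 0.0512 and 0.0480, below every other sample. Ccl2 rose in these cells with LPS and Ccl8 was not called to change (0.35, with a 95% interval from -0.88 to 1.57). Both lie within the same 81.2 kb. The ratio of Ccl12 to Ccl2 was 0.411, 0.293 and 0.403 in WT LPS samples and 0.0866, 0.0890 and 0.141 in cGAS-/- LPS samples.

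Within the MIP subcluster, Ccl6 to Ccl9 was 0.558, 0.513 and 0.585 in WT UT samples, 0.455, 0.373 and 0.393 in cGAS-/- UT samples and 0.449, 0.248 and 0.724 in WT LPS samples. In cGAS-/- LPS samples it was 0.0527, 0.0726 and 0.0539, below all others.

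**Figure D3:**
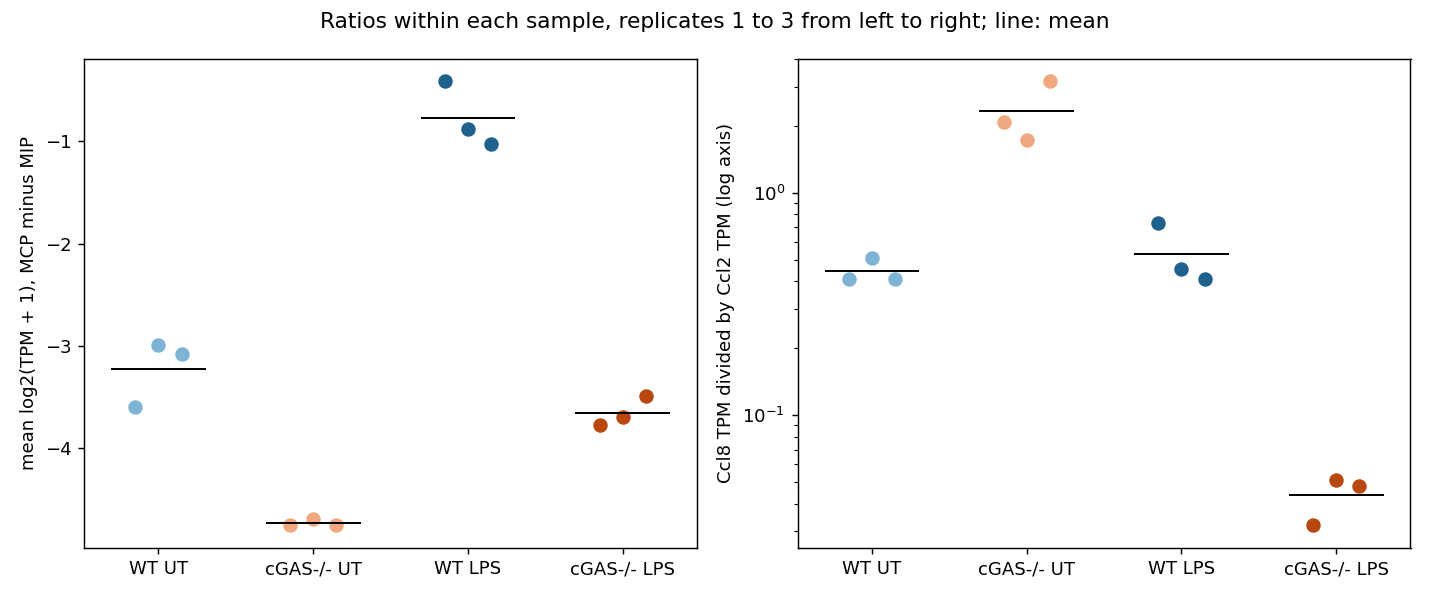
On the left panel, mean log2(TPM + 1) of the 4 tested MCP genes minus that of the 5 MIP genes in each sample, and on the right panel the TPM of Ccl8 divided by that of Ccl2 on a log axis, with a line at the mean of each group of 3 samples. The WT LPS samples lay highest on the left, from -1.02 to -0.41, and the cGAS-/- LPS samples lowest on the right, from 0.0319 to 0.0512.

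Among the other CC chemokine ligands, 10 of 11 listed were in the table, and 5 of these, Ccl1, Ccl19, Ccl20, Ccl21a and Ccl26, were at 0 in every sample. The 3 that could be tested, Ccl22, Ccl24 and Ccl25, were not above 1.68 TPM in any sample, and 0 of 3 were called by limma in any comparison, with 1 at an unadjusted p under 0.05 in each genotype comparison and in the difference of the LPS effect, and 0 for LPS in either genotype. In the fit on the other 11 samples without WT LPS replicate 3, 2 of 3 were called higher with LPS in WT cells (35.2% of all genes called). In cGAS-/- LPS cells 1 was then called lower than in WT (8.27%).

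Of the 14 CC chemokine receptor genes in the table, 7 were tested. LPS raised 4 of them in WT cells, Ccr1, Ccr1l1, Ccr3 and Ccrl2, among which Ccr1, the receptor of Ccl3, Ccl5, Ccl6 and Ccl9, rose by 2.52 (SE 0.35, adjusted p = 4.63e-04) and Ccrl2, a chemerin-binding receptor that does not signal, by 2.04 (adjusted p = 0.00234). In cGAS-/- cells Ccr1 rose by 2.20 (adjusted p = 0.00137) and Ccr2, the receptor of Ccl2, Ccl7 and Ccl12, fell by 1.32 (adjusted p = 0.0181). With LPS, Ccr1 was at 60.5 ± 30.3 TPM (SD, n = 3) in WT and at 15.8 ± 3.23 TPM in cGAS-/- cells, a log2 fold change of -1.79 (adjusted p = 0.0237). Ccr2 was at 3.71 ± 2.78 and 0.509 ± 0.0871 TPM in the same groups (-1.49, adjusted p = 0.0384), and 0 of 7 receptors were called by limma between genotypes in UT cells, with 2 lower at an unadjusted p under 0.05. Without WT LPS replicate 3, LPS changed Ccr1 by 2.14, Ccrl2 by 1.63 and Ccr2 by -1.29 in WT cells, all called (Ccr2 was at -0.84, adjusted p = 0.0705, with all samples). The genotype changes with LPS were then -1.41 for Ccr1 and -1.04 for Ccr2, both called. In UT cells 2 receptors, Ccr1 and Ccr2, were called lower (5.50% of all genes called).

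Of 34 genes listed for signalling from LPS to chemokine genes, 21 were in the table and tested. In WT cells 9 rose with LPS and 1 fell, and in cGAS-/- cells 8 rose and 0 fell (9 and 1 at an unadjusted p under 0.05 from limma). Irf7, an interferon-induced transcription factor, rose by 4.46 in WT (adjusted p = 4.57e-05) and 5.42 in cGAS-/- cells (adjusted p = 1.27e-05). Nfkbia, the NF-kB inhibitor that NF-kB itself induces, rose by 1.87 (adjusted p = 3.27e-04) and 2.73 (adjusted p = 2.72e-05). Between genotypes, the lower calls were Cgas in UT cells, and Cgas and Ifnb1 with LPS. Ifnb1, which encodes interferon beta, stood at 8.41 ± 1.20 TPM (SD, n = 3) in WT LPS cells and at 3.08 ± 0.445 TPM in cGAS-/- LPS cells, a log2 fold change of -1.20 (SE 0.18, adjusted p = 0.00597). The fit without WT LPS replicate 3 gave -1.12 for Ifnb1 and WT rises of 5.09 for Irf7 and 2.10 for Nfkbia. The list's calls between genotypes became 3 lower in UT cells (5.50% of all genes called) and 6 lower and 1 higher with LPS (8.27%). Irf7 was among the lower calls in both, at -1.12 in UT cells and -0.79 with LPS.

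Between the outermost members, 26 of 27 other protein-coding genes were in the table and 17 were tested. With LPS, 6 of these rose and 1 fell in WT cells and 8 rose in cGAS-/- cells, led by Slfn1 (6.12 and 6.16) and Slfn4 (6.24 and 5.01), growth-regulating Schlafen genes that interferon induces. Heatr9, Slfn5, Slfn8 and Slfn9 also rose in both genotypes, Slfn2 and Slfn3 were called in cGAS-/- cells, and Rad51d fell in WT cells by 0.72 (adjusted p = 0.0255). Between genotypes, Slfn1 was called lower in UT cells (-1.37, adjusted p = 0.0276) and with LPS (-1.33, adjusted p = 0.0313), and the other 16 were not called. Their medians of -0.12 and 0.30 lay between those of the subclusters in UT cells and close to that of the MIP genes with LPS. Leaving out WT LPS replicate 3, the median with LPS was -0.17. Of the 17, 3 were then called lower in UT cells (5.50% of all genes called) and 4 with LPS (8.27%), Slfn1 (-1.38) among them.

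**Figure D4:**
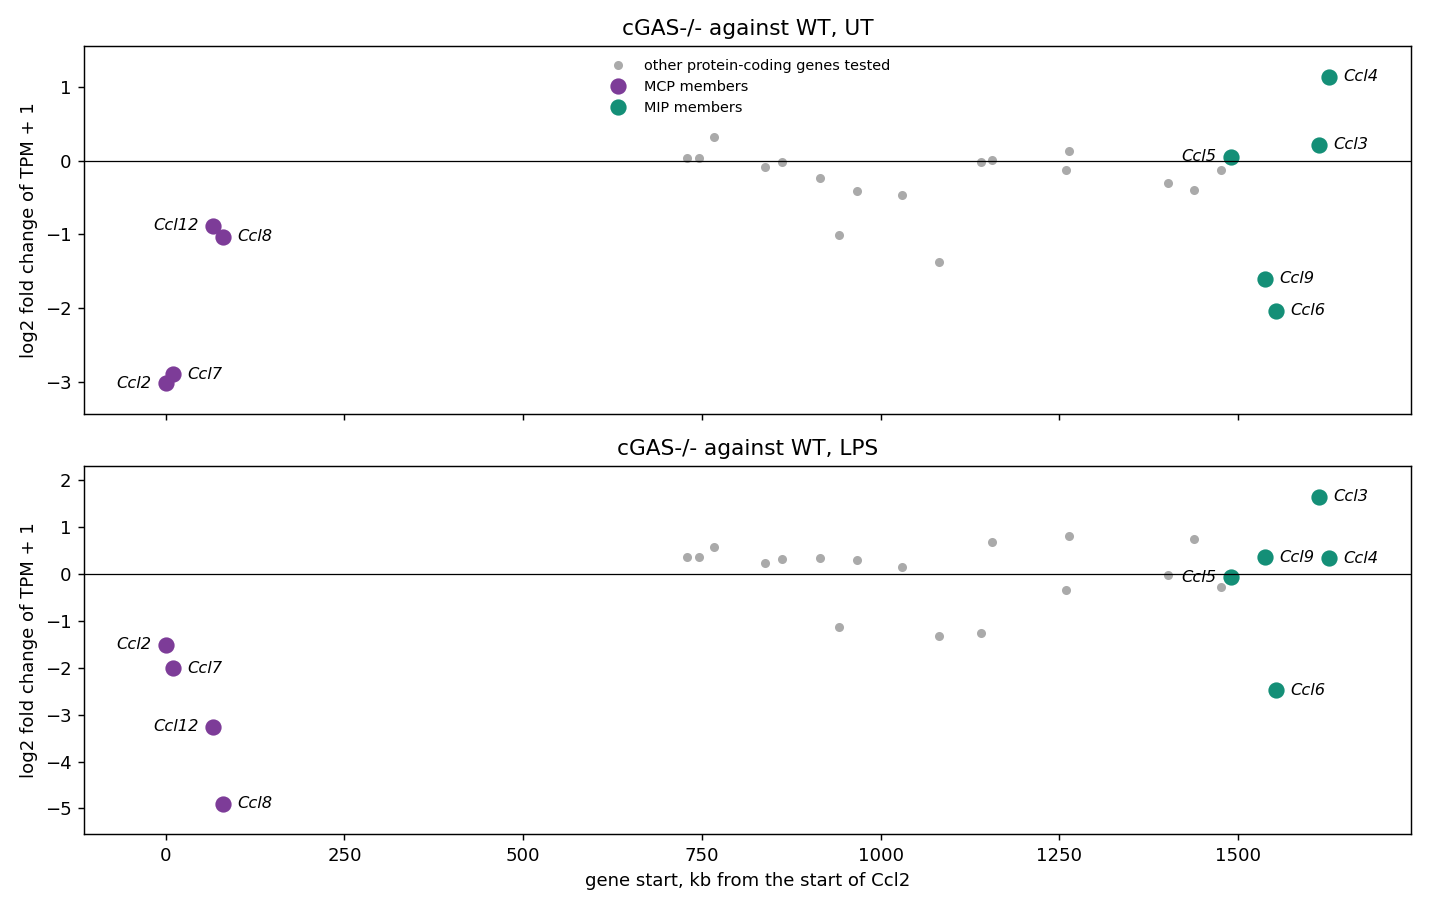
Log2 fold change of TPM + 1 in cGAS-/- against WT cells for the 9 tested members and the 17 tested protein-coding genes between them, by distance of the gene start from that of Ccl2 in kb, in UT cells above and with LPS below. The 4 MCP members at the left lie below 0 in both panels, and the MIP members at the right lie on either side of 0, with Ccl6 the lowest of them.

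The sum of macrophage markers was high in all samples, and higher in every cGAS-/- sample than in any WT sample under the same treatment. Of 11 listed, 7 had values, and these summed to between 17190 and 17930 TPM in WT UT, 20471 and 22341 TPM in cGAS-/- UT, 16817 and 26809 TPM in WT LPS and 33722 and 34186 TPM in cGAS-/- LPS samples. Such a sum can rest on few abundant genes, and single markers were not compared. The sums of 7 T and NK cell markers, of which 0 passed the filter, stayed at or below 0.795 TPM, and those of 5 mast cell and eosinophil markers at or below 1.13 TPM, with Fcer1a and Epx at 0 throughout. In UT cells, the sums for B cell, fibroblast, dendritic cell and neutrophil markers were lower in every cGAS-/- sample than in any WT sample, as were Ccl2, Ccl7, Ccl8, Ccl6 and Ccl9. The sums of 5 B cell markers ranged from 108 to 134 TPM in WT UT, 19.9 to 28.5 TPM in cGAS-/- UT, 30.6 to 44.9 TPM in WT LPS and 3.04 to 8.84 TPM in cGAS-/- LPS samples. Those of 6 fibroblast markers ranged from 7.31 to 9.26, 2.07 to 3.84, 5.86 to 17.1 and 2.80 to 3.91 TPM in the same order. Those of 7 dendritic cell markers ranged from 9.16 to 9.83, 4.82 to 6.60, 2.33 to 2.74 and 1.72 to 2.89 TPM. The sums of 8 neutrophil markers were 158 to 231 TPM in WT UT and 67.0 to 142 TPM in cGAS-/- UT samples, and overlapped with LPS, where the genotypes together spanned 59.3 to 374 TPM. Their part in the chemokine results was not tested. In bulk samples, fewer cells of a type and less RNA per cell cannot be told apart.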

How the data were processed

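The authors quantified reads with Kallisto and mapped them with STAR to GRCm39, per the labels and methods, which also name fastp, edgeR and limma. The unit of the deposited values is inferred to be TPM, as a mean over the transcripts of each symbol. Of 38739 symbols, 11887 were tested, those with at least 1 TPM in at least 3 of 12 samples, where for this filter alone the samples were set to equal totals. Values were taken as log2(TPM + 1), on which fold changes of low genes are understated, and fitted with limma 3.58.1 in R 4.3.3, with a mean per group over all 12 samples and a variance trend. Ratios of means are on the TPM scale. The members and lists were chosen with earlier results of these data known, and all 10 members were named whatever their values, while list genes were named from those past the test, up to 6 per list, with all such genes between the members. Other CC chemokines were named outside this rule, after their values were seen, since so few were measured. Some items are not reported here. Transcripts of GENCODE vM39 were compared with blastn 2.17.0. Simulated data served to test the script. Alternatives were other pseudocounts, filters, scalings (TMM factors computed from their formula), weights and sample sets. Depth is unknown, so no counting interval is given.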

Additional observations from a re-analysis of the deposited data

How the results depend on the processing

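The results above were recomputed under up to 25 alternatives each, which gave 1116 values for members, of which 1001 kept direction and side of the threshold, 66 gained a call, 29 lost it and 20 reversed, along with counts of called members. For cGAS-/- against WT in UT cells, the 2 called members, Ccl2 and Ccl6, kept their calls under all 25, and the count became 4 with TMM factors or a common protein-coding total (chosen after seeing the data), 6 with only the groups compared or with sample weights, 3 with protein-coding genes only (2.89% of those genes, Ccl7 added), and 2 to 5 leaving out a replicate. The share called over all genes, 1.83% as reported and with TMM factors, was 2.10%, 10.4% and 11.5% in the next 3 settings named, and 5.50% without WT LPS replicate 3, which gave the 5. With LPS the 3 called members became 0 with only the groups compared, where 0.0421% of all genes were called against 2.36%, 5 with weights (2.49%), 4 with TMM factors (4.14%) or a common protein-coding total (2.33%), which added Ccl2, 2 with a pseudocount of 0.1, which lost Ccl12, and 2 to 6 leaving out a replicate (6 without WT LPS replicate 3, 8.27%). Omitting WT LPS replicate 2, 28.5% of all genes and 4 members were called. For the difference of the LPS effect, 0 became 2 with a pseudocount of 5 or weights (1.72% and 2.46% of all genes against 0.900%), 1 with a filter of 5 TPM, TMM factors, quantile normalization, a common protein-coding total or protein-coding genes only (1.00% to 2.03%), and 0 to 5 leaving out a replicate, where 5 came from omitting WT LPS replicate 3 (4.56%) and 2 from omitting WT LPS replicate 2 (13.1%). Leaving out a replicate gave 6 to 8 members for LPS in WT cells (16.2% to 49.6% of all genes) and 5 to 8 in cGAS-/- cells (8.60% to 31.2%). With only the groups compared, 5 members were called for LPS in WT cells (6.02%), where Ccl3 and Ccl4 lost their calls (adjusted p = 0.215 and 0.0844).

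The reversed values were all of members not called. For LPS in WT cells, Ccl9 was at 0.20 with TMM factors, and at -1.05 to 0.25 leaving out a replicate (0.25 without WT LPS replicate 3). In UT cells, Ccl5 and the MIP median were at -0.02 with a common total, at -0.20 omitting WT UT replicate 2 and at -0.30 omitting cGAS-/- UT replicate 3, within ranges of -0.30 to 0.33 and -0.30 to 0.28. With LPS, TMM factors, weights and omitting WT LPS replicate 3 gave -0.04, -0.47 and -0.45 for the MIP median (leaving out a replicate, -0.45 to 0.60), -0.04, -0.50 and -0.55 for Ccl4 (-0.55 to 0.96), and -0.02, -0.14 and -0.40 for Ccl9 (-0.40 to 0.90). Ccl5 was at 0.06 with a common total and at -0.45 to 0.25 leaving out a replicate (0.25 for WT LPS replicate 1). For the difference of the LPS effect, Ccl5 and the MIP median were at 0.08 with a common total and at -0.50 to 0.23 leaving out a replicate, above 0 for WT UT replicate 2 (0.13), cGAS-/- UT replicate 3 (0.23) and WT LPS replicate 1 (0.20). Ccl7 was at -0.12 with a pseudocount of 5, -0.03 with weights and -0.29 to 1.54 leaving out a replicate (-0.29 for WT LPS replicate 3). The cause was not tested.

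With the replicate number as a block, the counts were 6, 6, 2, 3 and 0 for LPS in WT and cGAS-/- cells, the genotypes in UT and with LPS, and the difference of the LPS effect (24.9%, 11.9%, 1.43%, 1.51% and 0.454% of all genes), and Ccl3 in WT cells was the member that lost its call (adjusted p = 0.0583). No pairing by number was seen, as 0 of 18 same-numbered pairs correlated above 0.1 (from -0.03 to 0.04). With 3 samples per group, this cannot show that the samples were unpaired. TMM factors moved the median of all genes from 0.20 to 0.04 with LPS between genotypes, and the calls for LPS in WT cells from 512 higher and 2774 lower to 921 and 1454.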

Other observations

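The genes whose log2(TPM + 1) followed each member most closely over the 12 samples are given as descriptions, since the points share 4 conditions and samples of a condition lie together. Ccl2 and Ccl7 had the same leading pair, Fcgr4 (Pearson's r = 0.991 with Ccl2) and Ifitm6 (r = 0.991 with Ccl7). Ccl8 was followed most closely by Plac8 (r = 0.969) and Ccl12 by Casp4 (r = 0.976). In the MIP subcluster the closest genes were Ifi205 for Ccl5 (r = 0.988), Csf3 for Ccl3 (r = 0.989), Vegfc for Ccl4 (r = 0.973), Nxpe5 for Ccl6 (r = 0.984) and Slamf8 for Ccl9 (r = 0.979).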
